A study of Mus musculus with 5 samples.

Results

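The 44 protein-coding mouse genes whose symbol has the form of a collagen chain (Col, a type number, a, a chain number) were followed in 5 RNA sequencing libraries of spinal cord. They were found by matching the Ensembl identifiers of the count table, 55471 in all, to the GRCm38 annotation (GENCODE M21), with no measured value in the choice. All 44 had a count in at least 1 library. Of these, 42 passed the filter on low counts and were tested among 16052 genes, and the exceptions were Col10a1 and Col17a1. The tissue was spinal cord from male C57BL/6J mice, resting and 3 months old, with 3 libraries of wild type (WT) and 2 of mice homozygous for a knockout (KO, Lhx1os -/-) of the long non-coding RNA gene Lhx1os. For the KO, Cas9 cut at 1 guide site in the second exon, into which a synthetic polyadenylation signal followed by polymerase-destabilising MAZ repeats was placed. WT and KO libraries share strain, sex and age.

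Collagens are proteins of 3 chains wound into a triple helix, and each gene encodes a single chain. Fibrillar collagens form the cables of connective tissue, type IV forms the sheet of basement membranes, and other types bind to fibrils, form beaded filaments or span the cell membrane. In the spinal cord the parenchyma holds little fibrillar collagen. Fibroblasts of the meninges and of larger vessels are its known source there, while endothelial cells, pericytes and astrocytes contribute to the vascular basement membrane, and some neurons and glia express particular fibril-associated and transmembrane collagens.

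The libraries held 15973063 to 19437533 counts, of which collagen genes took 0.0749% to 0.103%. Lhx1os had 51 to 66 counts per WT library and 11 and 13 per KO library, in the direction of the labels. Its log2 fold change (KO minus WT) was -2.13 (SE 0.28), with an adjusted p of 0.0589 in edgeR's quasi-likelihood test. The targeted gene thus did not itself pass the test used below. A collagen gene that did not pass is therefore not shown to be unchanged. Summed markers of oligodendrocytes, neurons and astrocytes, the defining cells of the tissue, came to at least 4573 CPM per list in every library (CPM, counts per 1e+06 counts of a library, scaled by TMM factors). WT replicate 1 stood apart for collagens, as it was the lowest WT library for 31 of the 42 tested genes (73.8%), against 35.3% of all genes tested. Counts of calls, medians of fold changes and WT ranges are therefore also given without it.

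No collagen gene passed the test between KO and WT. Of the 42 tested, 0 had an adjusted p under 0.05 in edgeR's quasi-likelihood test, where 0.0187% of all genes did, and 0 did in DESeq2 (0.249% of all genes). At an unadjusted p under 0.05 there was 1, Col8a1, or 2.38%, against 7.57% of all genes. It was lower in KO, as 4.07% of all genes were at that p, and 0 collagen genes were higher, against 3.49%. The log2 fold changes (KO minus WT) ran from -0.62 for Col4a3 to 0.64 for Col6a5. Their median was -0.08, against 0.00 over all genes tested, and it was -0.19 without WT replicate 1, -0.02 without WT replicate 2 and -0.03 without WT replicate 3. Negative values were held by 30 of the 42 genes (71.4%), against 48.7% of all genes. That count was 29, 24 and 24 without WT replicates 1, 2 and 3, and 25 and 27 without KO replicates 1 and 2. It was 23 with the replicate number as a block. WT replicate 1 was the lowest WT library for 31 of the 42, so the signs are not independent of each other. Both KO libraries lay within the range of the WT libraries for 22 of the 42 (52.4%), where this held for 28.7% of all genes, and the groups did not overlap for 3, Col4a6 and Col8a1 (lower in KO) and Col20a1 (higher). Groups lay apart for 24.9% of all genes, 12% lower and 12.9% higher.

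The count of calls depended on the WT library that was lowest for most collagens. That library stood out in these same values. Leaving it out raises the WT mean and narrows the WT range of any gene lowest in it. Lower KO values and small standard errors in that fit are thus partly built in. Its calls are not separate evidence of a difference. Without WT replicate 1, edgeR called 58 genes (0.363% of those tested), and 3 of the 41 collagen genes then tested were among them. All 3 were lower in KO: Col1a2 (log2 fold change -0.60, SE 0.08, adjusted p = 0.0189), Col1a1 (-0.67, SE 0.10, adjusted p = 0.0277) and Col6a2 (-0.65, SE 0.11, adjusted p = 0.0330). Markers of cell types were called lower in KO in the same fit, namely Aldh1a2 (-0.76), Dcn (-0.75), Islr (-0.69) and Lum (-0.89) of the 12 meningeal fibroblast markers and Vtn (-0.63) of the 10 mural markers, with edgeR adjusted p-values from 0.0189 for Vtn to 0.0409 for Islr. Their part in the collagen calls was not tested. Leaving out any other library gave 0 collagen calls.

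**Figure D1:**
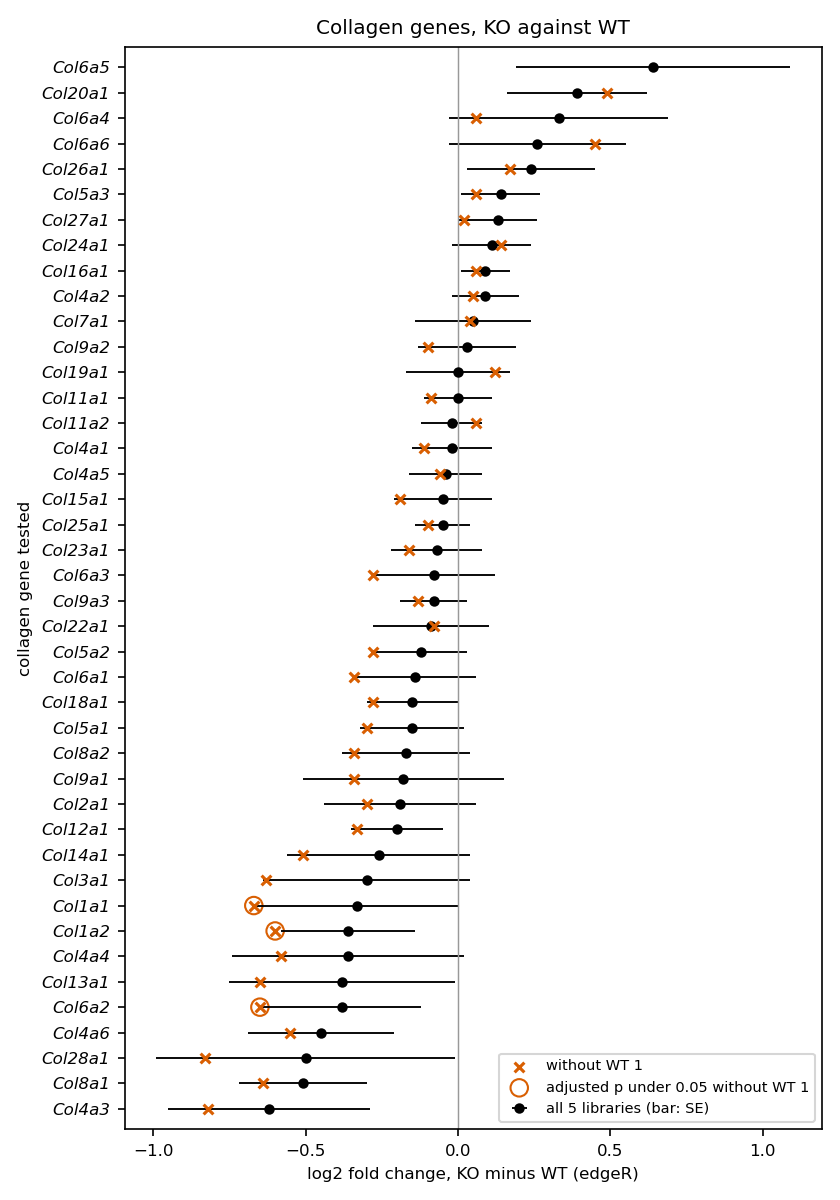
Log2 fold change of the 42 tested collagen genes, KO minus WT (x axis, edgeR), 1 gene per line. Black points with bars are the fit on 5 libraries with its standard error, crosses the fit without WT replicate 1, and circles mark the 3 genes with an adjusted p under 0.05 in that fit, Col1a1, Col1a2 and Col6a2. Col6a5 has no cross, as it was not tested without WT replicate 1.

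The spread between WT libraries was wide for many collagen genes, and at the median most of it came with WT replicate 1. The log2 range over the 3 WT libraries had a median of 0.54 over the collagen genes, against 0.21 over all genes tested. Between WT replicates 2 and 3 alone it was 0.19, against 0.13 over all genes, while the pairs with WT replicate 1 had 0.43 and 0.45, against 0.13 and 0.14. Low counts vary more, and the difference was also seen among genes with a mean of 10 to 100 CPM, where the median was 0.45 for 25 collagen genes and 0.17 for all 8220. The widest ranges belonged to Col3a1 (1.67), Col28a1 (1.60), Col1a1 (1.52), Col6a4 (1.28), Col14a1 (1.11) and Col13a1 (1.08). Without WT replicate 1 these came to 0.48 for Col3a1, 0.84 for Col28a1, 0.18 for Col1a1, 0.72 for Col6a4, 0.36 for Col14a1 and 0.19 for Col13a1. Without WT replicate 2, Col28a1 and Col6a4 had narrower ranges still, at 0.76 and 0.56. For Col2a1, Col26a1, Col16a1, Col4a2 and Col7a1 the range was as wide without WT replicate 1. It fell to between 0 (Col2a1) and 0.15 (Col7a1) without WT replicate 2. The narrowest ranges over the 3 WT libraries belonged to Col4a5 (0.11), Col22a1 (0.12) and Col24a1 (0.15). Among the WT libraries, replicate 1 was the highest for 6 genes (32.9% of all genes), replicate 2 for 18 (34.7%) and replicate 3 for 18 (32.4%). WT replicate 3 was the lowest for 10 genes (32% of all genes) and WT replicate 2 for 1 (32.7%).

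**Figure D2:**
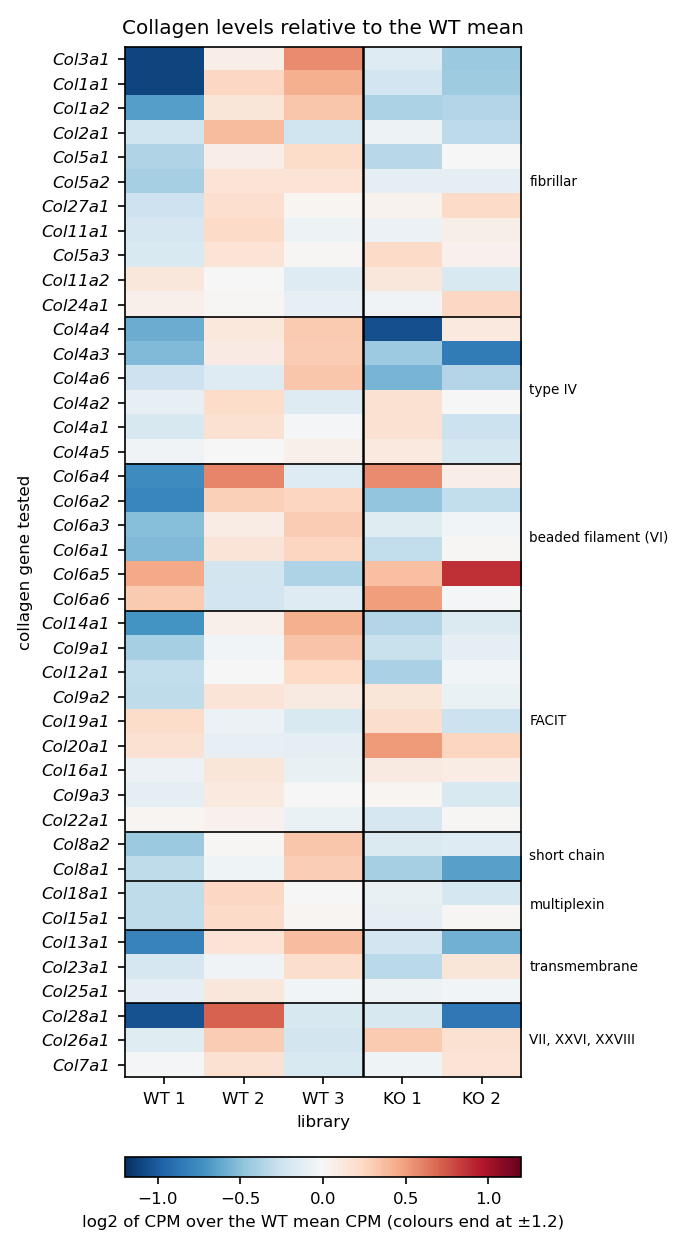
Level of the 42 tested collagen genes in each library (columns) as the log2 of CPM over the WT mean, blue below and red above it, grouped by class and ordered by WT range within a class. The WT 1 column is blue for most genes and darkest for Col3a1 and Col1a1 (18.4 and 17.9 CPM) and for Col28a1, while Col11a2, Col24a1 and Col6a5 are among the exceptions.

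The 11 fibrillar genes, all tested, took 46.2% of the collagen counts. Their summed level was 338.6, 477.7 and 483.8 CPM in WT replicates 1 to 3 and 402.5 and 388.7 CPM in KO replicates 1 and 2, so that both KO libraries lay inside the WT range. Mean WT level was 433.4 ± 82.1 CPM (SD, n = 3) and mean KO level 395.6 ± 9.74 CPM (SD, n = 2), 0.913 of WT. The log2 fold change was negative for 8 of the 11 genes and its median was -0.12. The median was -0.28 without WT replicate 1, -0.01 without WT replicate 2, -0.03 without WT replicate 3, -0.08 without KO replicate 2 and -0.01 with the replicate number as a block. The log2 ratio of the sums, -0.13, became -0.28, -0.06 and -0.04 without WT replicates 1, 2 and 3.

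Most of this spread lay in types I and III. Col1a1 and Col1a2 encode the chains of type I collagen, the main fibril of the dura and other dense connective tissue, and Col3a1 the chain of type III, which is laid down with it in soft tissue. Col1a1 stood at 17.9, 45.4 and 51.6 CPM in WT replicates 1 to 3 and at 32.6 and 28.5 CPM in KO replicates 1 and 2. Col1a2 stood at 62.5, 109 and 124 CPM in WT and 76.0 and 77.5 CPM in KO. Col3a1 stood at 18.4, 41.9 and 58.6 CPM in WT and 35.5 and 29.1 CPM in KO. In each of the 3 genes the KO libraries fell between WT replicate 1 and WT replicate 2. The log2 fold changes were -0.33 (SE 0.33) for Col1a1, -0.36 (SE 0.22) for Col1a2 and -0.30 (SE 0.34) for Col3a1, with edgeR adjusted p-values of 0.826, 0.730 and 0.859. Without WT replicate 3, the WT library highest in all 3, they were -0.07, -0.17 and 0.08. The highest WT library exceeded the lowest by 2.88-fold for Col1a1, 1.98-fold for Col1a2 and 3.19-fold for Col3a1. The 3 genes moved together: the count of Col3a1 per count of Col1a1 within a library, which no scaling affects, stayed between 0.924 and 1.14 over the 5 libraries. Col1a1 per Col1a2 ran from 0.286 in WT replicate 1 to 0.429 in KO replicate 1. The other 8 fibrillar genes summed to 256.8 ± 21.5 CPM (SD, n = 3) for WT, 1.17-fold from lowest to highest library, and to 256.1 ± 3.43 CPM (SD, n = 2) for KO.

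Markers of meningeal fibroblasts varied over the same libraries. All 12 of the list were detected in every library and none was at 0. Their summed level was 222.4, 346.1 and 419.1 CPM in WT replicates 1 to 3 and 240.7 and 267.6 CPM in KO replicates 1 and 2, again lowest in WT replicate 1 and highest in WT replicate 3, with the KO libraries between WT replicates 1 and 2. Some members differed from the sum. Among the WT libraries, replicate 2 was the lowest for Mgp and Slc47a1. Both KO libraries lay below all WT libraries for Mgp, Pdgfra and Foxc1, as they did for 12% of all genes tested. Mgp stood at 36.2, 31.2 and 43.5 CPM in WT and 28.5 and 25.3 CPM in KO (-0.45, SE 0.13, adjusted p = 0.487 in edgeR). All 12 had negative log2 fold changes, 0 passed in edgeR on all 5 libraries, and 4 (Aldh1a2, Dcn, Islr and Lum) passed without WT replicate 1. Those 4 had their lowest WT value in that library, so the limit given above for that fit applies. Dcn and Lum stand both in this list and among the partners of fibrils below, and Pdgfra also marks oligodendrocyte precursors. Markers of mural cells summed to 315.5 to 483.7 CPM in WT and 433.8 and 313.0 CPM in KO replicates 1 and 2, and those of Schwann cells to 434.7 to 712.5 CPM in WT and 492.3 and 644.8 CPM in KO. Among mural markers Vtn varied most in WT, at 65.5, 153.6 and 168.8 CPM (2.58-fold from lowest to highest). Kcnj8 (2.03-fold) and Anpep (1.89-fold) came next, and the others varied by 1.17-fold (Myh11) to 1.42-fold (Abcc9). The part of these cell types in the collagen levels was not tested. In bulk tissue, fewer cells of a type and less RNA per cell cannot be told apart.

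**Figure D3:**
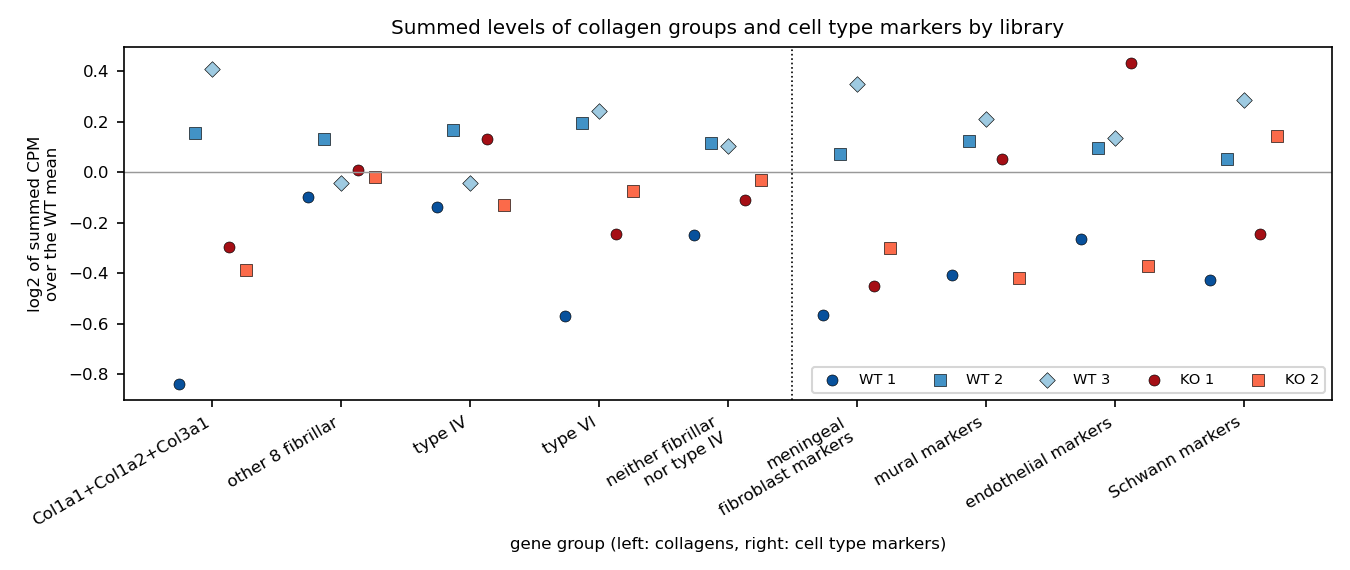
Summed CPM of collagen groups (left of the dotted line) and of cell type marker lists (right) in each library, as the log2 over the WT mean. WT 1 is the lowest of the 5 libraries for Col1a1, Col1a2 and Col3a1 (98.8 CPM) and for the meningeal fibroblast markers (222.4 CPM), and KO 1 is the highest for the endothelial markers (401.9 CPM).

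The type XI genes varied less between libraries than types I and III. Col11a1 and Col11a2 encode chains of type XI, which in cartilage seeds the type II fibril, and Col2a1 encodes type II itself. Col11a2 stood at 93.4, 85.2 and 76.2 CPM in WT replicates 1 to 3 and at 93.2 and 74.8 CPM in KO (log2 fold change -0.02, SE 0.10). Col11a1 stood at 69.0, 93.1 and 76.0 CPM in WT and 75.5 and 83.4 CPM in KO (0.00, SE 0.11). Col11a2 was highest in WT replicate 1, opposite to types I and III. Col2a1 stood at 3.63, 5.57 and 3.63 CPM in WT and 4.11 and 3.44 CPM in KO (-0.19, SE 0.25). Of 10 markers of cartilage and bone, Matn1, Ibsp and Bglap did not pass the filter, and the osteoblast gene Bglap had a count in KO replicate 1 alone. The list summed to 41.4 to 47.7 CPM in WT and 46.3 and 49.4 CPM in KO, most of it from Acan, which perineuronal nets of neurons also hold.

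Upstream sequences are shown for Col3a1, the fibrillar gene with the widest WT range, and for Col11a1 and Col11a2, whose levels differed less between libraries. Each line holds the 160 bases before the start of transcription in RefSeq on GRCm38.p6, read 5' to 3' on the gene's strand, here the plus strand. They lie at chr1:45311378-45311537, chr3:114030380-114030539 and chr17:34038978-34039137 and overlap no annotated exon. Capitals mark matches on either strand to the letters TATAAA (of the TATA box), CCAAT (of the CCAAT box) and GGGCGG (of the GC box), which do not overlap each other here.
Col3a1: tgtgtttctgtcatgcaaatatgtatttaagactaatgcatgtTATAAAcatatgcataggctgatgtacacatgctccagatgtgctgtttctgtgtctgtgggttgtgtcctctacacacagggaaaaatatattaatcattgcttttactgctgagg
Col11a1: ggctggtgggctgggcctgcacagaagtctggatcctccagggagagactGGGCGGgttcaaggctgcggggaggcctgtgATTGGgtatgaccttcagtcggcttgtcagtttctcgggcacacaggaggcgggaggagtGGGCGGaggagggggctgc
Col11a2: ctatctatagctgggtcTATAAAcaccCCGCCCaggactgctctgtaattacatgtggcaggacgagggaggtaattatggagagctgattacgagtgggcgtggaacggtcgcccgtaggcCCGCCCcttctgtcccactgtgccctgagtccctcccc
The Col3a1 stretch holds 1 TATAAA and neither other motif, and 37.5% of its bases are G or C. That of Col11a1 holds 2 GC boxes and 1 CCAAT box, the latter on the opposite strand as ATTGG, with 65.6% G or C. That of Col11a2 holds 1 TATAAA and 2 GC boxes, both on the opposite strand as CCGCCC, with 58.1% G or C. The RefSeq table covers 35 of the 44 genes with 38 windows. Over the full 250 bases before the start, TATAAA is found in 5 of them (13.2%), CCAAT in 13 (34.2%) and GGGCGG in 22 (57.9%), against 12.4%, 33.8% and 32.7% of all 32851 windows of that length. A match is a string of letters, counted at any distance from the start. It does not show that a box is in a working place or that a factor binds.

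Type V, which starts fibrils of type I, had intermediate values. Col5a2 stood at 19.6, 28.9 and 29.0 CPM in WT replicates 1 to 3 and 23.9 and 23.8 CPM in KO (log2 fold change -0.12, SE 0.15). Col5a1 ranged from 12.9 to 19.4 CPM over the 5 libraries (-0.15, SE 0.17) and Col5a3 from 13.4 to 17.8 CPM (0.14, SE 0.13). For Col5a1 and Col5a2 WT replicate 1 was the lowest of all libraries, as for type I. Col24a1 and Col27a1, fibrillar genes known from developing skeleton, had values of 10.3 to 13.1 CPM (0.11, SE 0.13) and 16.4 to 22.8 CPM (0.13, SE 0.13). Adjusted p-values of these 5 genes ran from 0.812 to 0.876 in edgeR.

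The 6 type IV genes, all tested, made up 15.3% of the collagen counts. They summed to 125.2, 154.5 and 133.8 CPM in WT replicates 1 to 3 and 151.0 and 126.0 CPM in KO. Mean WT level was 137.8 ± 15.1 CPM (SD, n = 3) and mean KO level 138.5 ± 17.7 CPM (SD, n = 2), 1.01 times WT. Here the spread between WT libraries was smaller than in the fibrillar class, at 1.23-fold against 1.43-fold from lowest to highest. The sum hides unequal members, as the log2 fold change was negative for 5 of the 6 (median -0.20), and the low genes of the family held the largest of them. That median became -0.33 without WT replicate 1 and -0.11 without WT replicate 3.

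Col4a1 and Col4a2 encode the chains found in nearly all basement membranes, those of blood vessels included. Col4a2 stood at 57.8, 71.7 and 55.5 CPM in WT replicates 1 to 3 and at 69.9 and 62.1 CPM in KO (log2 fold change 0.09, SE 0.11). Col4a1 stood at 43.7, 56.6 and 48.9 CPM in WT and 56.5 and 41.7 CPM in KO (-0.02, SE 0.13). The KO libraries thus lay apart for Col4a1, with KO replicate 1 at 1.35 times KO replicate 2, the former close to the highest WT library and the latter below the lowest. Endothelial markers (10 of 10 tested, none at 0) lay apart in the same direction, at 401.9 CPM in KO replicate 1 and 230.5 CPM in KO replicate 2 against 247.9 to 327.5 CPM in WT, and their part in the levels of Col4a1 was not tested. Without KO replicate 1 the log2 fold change of Col4a1 was -0.26 and without KO replicate 2 it was 0.18. The count of Col4a1 per count of Col4a2 stayed between 0.672 and 0.881.

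Col4a3, Col4a4, Col4a5 and Col4a6 encode the chains of more restricted basement membranes, such as those of kidney and smooth muscle. Col4a5 stood far above the other 3, at 17.0, 17.4 and 18.3 CPM in WT and 19 and 15.1 CPM in KO (-0.04, SE 0.12). Col4a6 stood at 3.51, 3.73 and 5.23 CPM in WT and 2.82 and 3.25 CPM in KO, both KO libraries below all WT libraries (-0.45, SE 0.24, adjusted p = 0.714). Col4a3 stood at 1.55, 2.40 and 2.77 CPM in WT and 1.66 and 1.25 CPM in KO (-0.62, SE 0.33, adjusted p = 0.712). Col4a4 had 19 counts in KO replicate 1 against 42 in the other KO library, and its log2 fold change of -0.36 (SE 0.38) became 0.11 without KO replicate 1 and -1.06 without KO replicate 2. None of the 4 passed the test in edgeR.

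The type IV genes lie in head-to-head pairs, each pair read outward from a shared region. In GENCODE M21 the starts of Col4a4 (minus strand) and Col4a3 (plus strand) on chromosome 1 are separated by 71 bases and those of Col4a6 and Col4a5 on chromosome X by 1308 bases, while the first exons of Col4a1 and Col4a2 on chromosome 8 overlap by 22 bases. Members of a pair stood at unlike levels in 2 of the 3 pairs. Per length, Col4a5 was 5.79 times Col4a6 and Col4a1 was 0.693 times Col4a2, whereas Col4a3 was 0.997 times Col4a4 (mean over 5 libraries of the count ratio per base of exon). That last mean covers unlike libraries, since Col4a3 per Col4a4 in counts was 0.904 to 0.963 in WT, 1.42 in KO replicate 1 and 0.476 in KO replicate 2. The whole gap of the most compact pair with separate starts, at chr1:82586850-82586920 of GRCm38.p6, is shown 5' to 3' on the minus strand, toward Col4a4. It holds no match to the 3 motifs.
Col4a4-Col4a3: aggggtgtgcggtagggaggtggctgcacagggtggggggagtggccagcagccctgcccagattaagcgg

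Type VI collagen forms beaded filaments near basement membranes and around cells, from the chains of Col6a1 and Col6a2 with 1 further chain, most often that of Col6a3. Fibroblasts and Schwann cells are known sources. The 6 genes summed to 50.3, 85.3 and 88.2 CPM in WT replicates 1 to 3 and 62.9 and 70.9 CPM in KO. Col6a2 stood at 13.4, 28 and 27.5 CPM in WT and 16.6 and 18.8 CPM in KO (log2 fold change -0.38, SE 0.26, adjusted p = 0.757). Col6a1 stood at 23.6, 38.0 and 40.9 CPM in WT and 27.8 and 34.4 CPM in KO (-0.14, SE 0.20). Col6a3 stood at 8.75, 13.3 and 15.4 CPM in WT and 11.3 and 12.2 CPM in KO (-0.08, SE 0.20). For these 3 genes WT replicate 1 was the lowest of all 5 libraries and the KO libraries lay inside the WT range. Within a library, the count of Col6a3 per count of Col6a1 stayed between 0.349 and 0.408. Other genes of the type encode chains that can take the place of that of Col6a3. Col6a4 had 1.55 to 3.93 CPM over the 5 libraries (0.33, SE 0.36), Col6a6 1.63 to 2.70 CPM (0.26, SE 0.29) and Col6a5 0.369 to 0.875 CPM (0.64, SE 0.45). Col6a4 was lowest in WT replicate 1 as well, whereas Col6a5 and Col6a6 were higher there than in the other WT libraries, at 11 and 40 counts.

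The fibril-associated collagens with interrupted helices (FACIT), 9 genes, summed to 141.7 ± 10.8 CPM for WT (SD, n = 3) and to 140.2 ± 0.961 CPM for KO (SD, n = 2), 0.990 of WT. Col16a1, the most abundant of them, stood at 53.3, 61.8 and 52.8 CPM in WT and 60.2 and 59.4 CPM in KO (log2 fold change 0.09, SE 0.08). Col12a1, which coats type I fibrils, ranged from 23.9 to 36.8 CPM (-0.20, SE 0.15) and Col14a1, of like function, from 2.62 to 5.79 CPM (-0.26, SE 0.30). Both had their highest value in WT replicate 3. The type IX genes Col9a3 (18.7 to 23.0 CPM; -0.08, SE 0.11), Col9a2 (8.69 to 11.9 CPM; 0.03, SE 0.16) and Col9a1 (1.07 to 1.79 CPM; -0.18, SE 0.33) stood at unlike levels although their chains form 1 molecule in cartilage. Col9a3 per Col9a2 stayed between 1.83 and 2.25 in counts. Col19a1, known from subsets of neurons, was highest in WT replicate 1 at 12.0 CPM and KO replicate 1 at 11.9 CPM, and 8.63 to 9.81 CPM elsewhere (0.00, SE 0.17). Col22a1, a gene of the muscle-tendon junction, ranged from 3.56 to 4.24 CPM (-0.09, SE 0.19). Col20a1 was the only tested gene of the family whose KO libraries, at 3.50 and 2.94 CPM, lay above all WT libraries, at 2.80, 2.30 and 2.28 CPM (0.39, SE 0.23, adjusted p = 0.730). It shares 79 bases of exon with BX649560.1 on the same strand (6.70 CPM), so its count is uncertain.

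Among the short-chain collagens, Col8a1 had the smallest p of the family. Col8a1 and Col8a2 encode chains of type VIII, a network collagen of vessel walls and of the membrane behind the cornea. Col8a1 stood at 6.01, 7.20 and 9.11 CPM in WT replicates 1 to 3 and at 5.64 and 4.75 CPM in KO, both below all WT libraries. Its log2 fold change was -0.51 (SE 0.21), with an unadjusted p of 0.0309 and an adjusted p of 0.641 in edgeR, and it stayed between -0.65 and -0.35 with any library left out. Col8a2 stood at 5.83, 8.02 and 10.0 CPM in WT and 7.05 and 7.13 CPM in KO (-0.17, SE 0.21). The count of Col8a1 per count of Col8a2 was 1.03, 0.898 and 0.908 in WT and 0.8 and 0.667 in KO, lower in both KO libraries. The 160 bases before the start of Col8a1, at chr16:57754738-57754897 on the minus strand of GRCm38.p6, hold 3 GC boxes (capitals, here on the opposite strand of the gene as CCGCCC).
Col8a1: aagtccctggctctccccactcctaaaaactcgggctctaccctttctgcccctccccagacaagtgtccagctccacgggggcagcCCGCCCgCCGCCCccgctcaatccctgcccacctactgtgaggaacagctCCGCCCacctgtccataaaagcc

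Col15a1 and Col18a1 encode the multiplexins, collagens of vascular basement membranes, and the end of the Col18a1 protein is cut to release endostatin. Col18a1 ranged from 13.8 to 20.2 CPM (log2 fold change -0.15, SE 0.15) and Col15a1 from 10.9 to 15.8 CPM (-0.05, SE 0.16). Both were lowest in WT replicate 1 and highest in WT replicate 2, with the KO libraries inside.

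The transmembrane collagens were dominated by Col23a1 and Col25a1, genes with known neuronal expression. Col25a1, whose protein is needed by motor axons to enter muscle and is found in amyloid plaques, stood at 36.4, 43.2 and 38.5 CPM in WT and 37.8 and 38.4 CPM in KO (log2 fold change -0.05, SE 0.09). Col23a1 stood at 36.3, 40.6 and 48.5 CPM in WT and at 33.4 and 46.3 CPM in KO (-0.07, SE 0.15), so that the KO libraries differed more from each other than the group means did. Col13a1, a collagen of the neuromuscular synapse, ranged from 1.07 CPM in WT replicate 1 to 2.40 CPM in WT replicate 3 (-0.38, SE 0.37). Col17a1, of epithelial hemidesmosomes, had 0 to 2 counts per WT library against 8 and 3 per KO library and was not tested. Col10a1, of cartilage growth plates, had 0 to 2 counts per library and was not tested either. Both KO libraries lay above all WT libraries for Col17a1, while the groups overlapped for Col10a1. Counts this low were too few to test a difference for either gene.

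Of the remaining genes, Col7a1, the anchoring fibril of skin, ranged from 4.49 to 5.77 CPM (log2 fold change 0.05, SE 0.19) and Col26a1 from 3.45 to 4.97 CPM (0.24, SE 0.21). Col28a1, known from peripheral nerve, had 12, 47 and 21 counts in WT and 21 and 13 in KO (-0.50, SE 0.49). It was highest in WT replicate 2, and without that library its log2 fold change was 0.07.

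Levels of different genes were compared per length, as CPM per kb of the union of exons, averaged over the 5 libraries. Col11a2 led at 12.3, followed by Col4a2 (9.58), Col16a1 (8.52), Col6a1 (7.52), Col1a2 (7.23), Col23a1 (7.15) and Col4a1 (6.63). Col1a1 came to 5.36 and Col3a1 to 3.74. The order depended on the length used, because the union of exons of Col1a2 (12426 bases) is far longer than its longest transcript (5348 bases). Per kb of the longest transcript Col1a2 led at 16.8, ahead of Col11a2 at 14.0. Col11a2, Col4a2, Col16a1, Col6a1, Col1a2, Col23a1 and Col4a1 were among the leading 8 genes by either length.

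**Figure D4:**
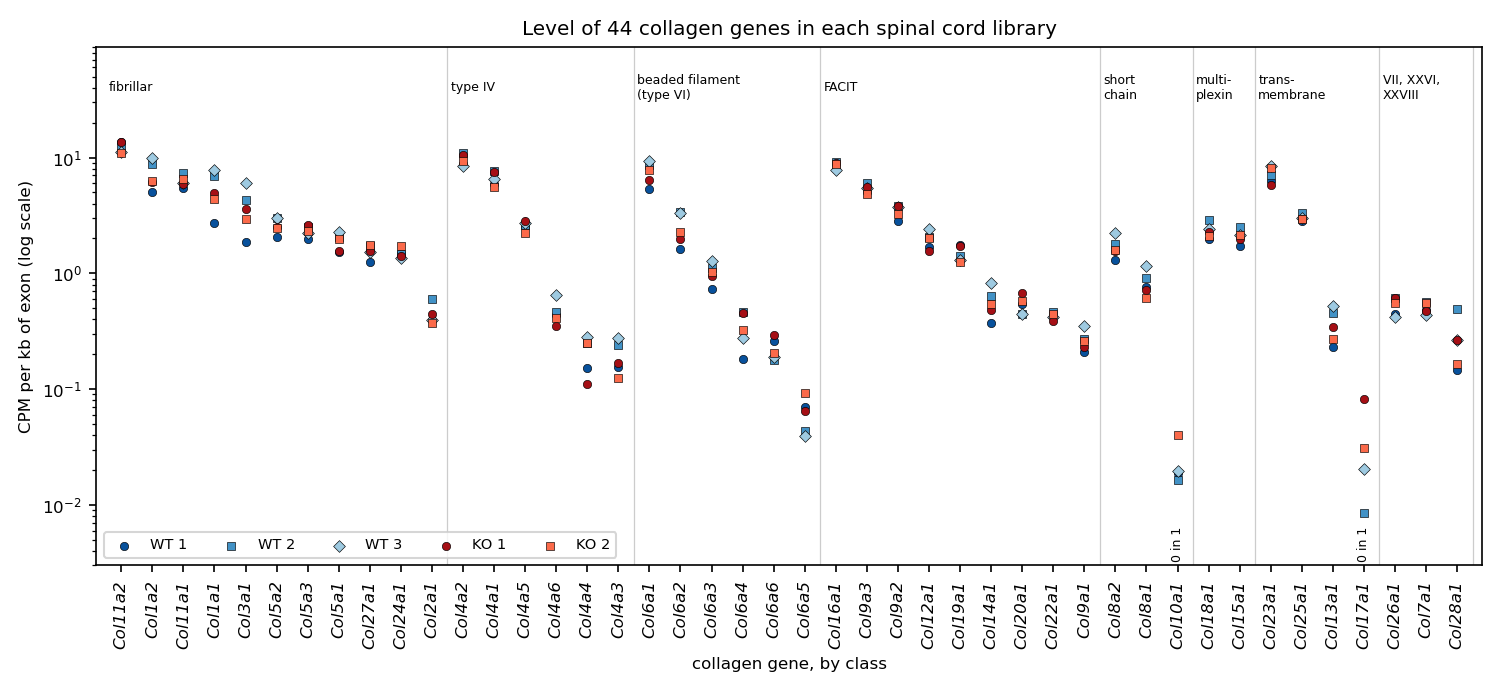
Level of the 44 collagen genes in each of the 5 libraries, as CPM per kb of exon on a log axis, by class and in falling order within a class. Points of a gene lie close together for Col11a2, Col16a1 and Col4a5 and far apart for Col3a1 and Col1a1, and Col10a1 and Col17a1 each have 1 library at 0, written above their names since a log axis has no 0.

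Genes that process, cross-link, bind or degrade collagen were read from lists of 73 genes, of which 71 were tested. None had an adjusted p under 0.05 in edgeR or DESeq2, and 9 had an unadjusted p under 0.05 in edgeR, 6 lower and 3 higher in KO, where 7.57% of all genes had such a p, 4.07% lower and 3.49% higher. The lists had 53 negative and 18 positive log2 fold changes, with a median of -0.11, against 48.7% negative over all genes. WT replicate 1 was the lowest WT library for 49 of the 71, against 35.3% of all genes. Among the 14 hydroxylases and glycosyltransferases of the endoplasmic reticulum, 11 were negative. P4ha1, the catalytic subunit of prolyl 4-hydroxylase that stabilises the triple helix, stood at 54.1, 46.2 and 53.7 CPM in WT and 34.3 and 44 CPM in KO (-0.39, SE 0.11, adjusted p = 0.484). Its KO libraries lay below all WT libraries. Plod2, a lysyl hydroxylase, had -0.34 (SE 0.12) and P3h4, a partner of lysyl hydroxylation, 0.28 (SE 0.12). Serpinh1, the collagen chaperone HSP47, stood at 29.3, 38.3 and 44.9 CPM in WT and 27.2 and 28.6 CPM in KO (-0.43, SE 0.15, adjusted p = 0.591), as 1 of 6 chaperone and export genes.

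Of the 8 propeptidases and their enhancers, Pcolce2 had -0.38 (SE 0.12), and Pcolce, the enhancer of procollagen cleavage, was lowest in WT replicate 1 like type I collagen, with 9.82, 23.4 and 30.4 CPM in WT and 16.1 and 15.9 CPM in KO (-0.40, SE 0.34). Of the 6 cross-linking genes 0 had an unadjusted p under 0.05, and the most abundant, Pxdn, which cross-links type IV, had -0.10 (SE 0.09). Of 9 receptors, Ddr1, a collagen-binding tyrosine kinase, had the smallest p of these lists, with 162.0, 159.1 and 165.4 CPM in WT and 196.9 and 180.0 CPM in KO (0.22, SE 0.06, adjusted p = 0.476), and the integrin gene Itgb1 had -0.18 (SE 0.08). Of 8 tested proteases and inhibitors, Timp3 had -0.33 (SE 0.12) and Mmp14, a membrane-bound collagenase, 0.27 (SE 0.10). The 9 partners of fibrils had the widest WT spread, with a median WT log2 range of 1.21 and 8 of 9 negative. Their most abundant gene, Sparc, which many cells of the cord express, had 0.03 (SE 0.06). Of the 11 basement membrane partners 9 were negative, with Agrn, the most abundant, at 0.09 (SE 0.08). Without WT replicate 1, where 0.363% of all genes were called, 6 of the 71 had an adjusted p under 0.05 in edgeR, all lower in KO, namely Fmod, Timp3, Dcn, Lum, Serpinh1 and Pcolce. These 6 genes had their lowest WT value in that library, so the limit given above for that fit applies. Their adjusted p-values ran from 0.000390 for Fmod to 0.0479 for Pcolce, and leaving out any other library gave 0.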

How the data were processed

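Polyadenylated RNA of spinal cord was sequenced from TruSeq Stranded libraries, per the labels' protocols. The authors deposited a table of unnormalized read counts, 1 row a gene, made with cutadapt, Trimmomatic, STAR 2.5.2b, HTSeq and GRCm38, per the submitters' processing notes. No strand setting or annotation release is given in the sources used here, so reads of genes that share exon sequence may be misassigned. Col4a1 and Col4a2 share 22 bases on opposite strands, and Col9a3 shares 234 with Tcfl5 (0.0923 CPM). Groups came from the sample titles. Each column name carries a number of its own that the labels do not explain, and nothing says that libraries came from separate animals, so p-values measure only the spread between these libraries, which may be technical. Libraries of 1 group differed by more than counting noise (chi-square per degree of freedom 4.01 to 7.47).

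GENCODE M21 matched 55230 of 55471 identifiers, and those unmatched held 0.00196% of counts. Genes were filtered with filterByExpr (minimum count 10, minimum total 15), scaled by TMM (factors 0.982 to 1.01) and tested by quasi-likelihood F tests (edgeR 4.0.16, R 4.3.3), with Benjamini-Hochberg adjustment over 16052 genes and a threshold of 0.05. CPM are scaled by TMM factors, and WT log2 ranges use a prior count of 2. Errors of fold changes (SE) are approximate standard errors, the absolute log2 fold change divided by the square root of the F statistic. The totals of 15973063 to 19437533 counts set the precision. On simulated data, 3 libraries against 2 over 15899 genes, the test recovered 65.7% of genes changed by 1.5-fold, 74.6% by 2-fold and 100% by 4-fold. It made 168 calls there, 8 of them on unchanged genes. Simulated counts took their spread from the trend over all genes. Collagen genes spread more between WT libraries (median log2 range 0.54, against 0.21 over all genes tested). The rates therefore cannot be read as rates for collagen genes and may be too high for them. In the measured libraries Lhx1os, with a log2 fold change of -2.13, did not pass (adjusted p = 0.0589 in edgeR). Members and lists were chosen with earlier results of these data known, although the rule that picks the members reads only gene symbols. Named are all fibrillar and type IV genes, other members of at least 1 CPM, those of unadjusted p under 0.05, the 6 widest and 3 narrowest in WT, and from the processing lists those of unadjusted p under 0.05 or else the most abundant gene. Col6a5, Col10a1, Col17a1 and further genes of the processing lists (Pcolce and those called without WT replicate 1) were named after their values were seen. Alternatives were other size factors and filters, robust dispersion, DESeq2 1.42.0, limma-voom (limma 3.58.1), a block for the replicate number, leaving out every library in turn, other class memberships and another length, and, chosen after seeing the data, WT ranges without each WT library.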

Additional observations from a re-analysis of the deposited data

How the results depend on the processing

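Col10a1 and Col17a1 had at most 8 counts per library, too few for the filter. Over all genes 3 were called, against 6 with DESeq2 size factors, 96 with no filter on low counts, 12 with robust dispersion, 40 with DESeq2, 1 with limma-voom, and 0 to 58 with a library left out. Collagen calls stayed at 0 under each of these except without WT replicate 1, so that leaving out a library gave 0 to 3. An unadjusted p under 0.05 was held by 1 collagen gene, against 4 with no filter and 0 to 11 with a library left out, 11 being without WT replicate 1. Of the processing and receptor genes 0 to 6 were called with a library left out, and 9 had an unadjusted p under 0.05, against 20 with no filter and 4 to 24 with a library left out.

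The numbers shared by WT and KO libraries do not pair them by any label, and the deviations of same-numbered libraries correlated at 0.058 and 0.002. With the replicate block, 25 genes were called over all genes, 0 of them collagens, and 0 collagens had an unadjusted p under 0.05. The block gave log2 fold changes of the other sign for Col7a1 (-0.02), Col6a1 (0.04), Col6a3 (0.11), Col14a1 (0.04), Col9a1 (0.02), Col3a1 (0.17), Col1a1 (0.04), Col8a2 (0.04) and Col23a1 (0.04), as did the 1 CPM filter for Col19a1 (0.00) and limma-voom for Col11a1 (0.01).

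Of 492 refits of 41 collagen genes, 445 kept direction and side of the threshold, 44 turned direction and 3 passed the threshold, and the cause was not tested. With a library left out, the log2 fold change turned for 24 genes, whose ranges were Col7a1 -0.06 to 0.16, Col28a1 -0.87 to 0.07, Col6a1 -0.34 to 0.01, Col6a3 -0.28 to 0.09, Col6a6 -0.03 to 0.50, Col9a3 -0.19 to 0.02, Col9a2 -0.10 to 0.14, Col19a1 -0.25 to 0.21, Col14a1 -0.51 to 0.00, Col22a1 -0.21 to 0.01, Col9a1 -0.34 to 0.00 and Col11a2 -0.19 to 0.13. The other ranges were Col11a1 -0.09 to 0.13, Col3a1 -0.63 to 0.08, Col5a1 -0.33 to 0.01, Col24a1 -0.04 to 0.25, Col2a1 -0.33 to 0.06, Col15a1 -0.19 to 0.08, Col8a2 -0.34 to 0.02, Col23a1 -0.32 to 0.15, Col25a1 -0.10 to 0.02, Col4a1 -0.26 to 0.18, Col4a5 -0.22 to 0.12 and Col4a4 -1.06 to 0.11. The KO over WT log2 ratios of class sums and the median log2 fold changes of classes moved by less than 1 SD of the WT libraries in every alternative run, other class memberships included. That SD includes WT replicate 1, and leaving out 1 of 3 WT libraries cannot move a WT mean by that much. It is therefore no measure of stability. The fibrillar median, for 1, ran from -0.28 without WT replicate 1 to -0.01 without WT replicate 2. The median WT log2 range of the collagen genes, 0.54, was 0.19 to 0.45 with a WT library left out, an alternative chosen after seeing the data, and 0.19 was without WT replicate 1.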
